A study of Mus musculus with 310 samples.

Results

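The Skint genes are a family of 10 among the 14068 genes of a single-cell RNA-seq count table from aged mouse tail epidermis. They were chosen by their symbols, as all genes of the table whose name is Skint followed by a number: Skint1, Skint2, Skint3, Skint4, Skint6, Skint7, Skint8, Skint9, Skint10 and Skint11. Skint5, which the annotation places in the same locus, is not analysed here. The family was put forward with results of the group comparison known, above all for Skint4, Skint9 and Skint10, so it was selected on the difference between 38w and 38wUW and that difference is given here as a description.

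The data are 310 columns, each taken as a single tdTomato+ keratinocyte of the population labelled L1. They were sequenced by Smart-seq2, a plate method that reads whole transcripts from a single sorted cell in each well. Of these columns, 15 have a name suffix that the labels do not explain, among them IDTILL on plate C114 and MBULK on C119. Some C114 wells occur both with and without IDTILL, so the columns may not all be separate single cells. The mice were Lrig1-EGFP-ires-CreERT2 crossed to Rosa26-fl/STOP/fl-tdTomato on a mixed CBA and C57BL/6 background. Cre recombinase was driven by Lrig1, a stem cell gene of the upper hair follicle, and a single topical dose of hydroxytamoxifen on the tail switched on tdTomato in Lrig1-expressing cells and their later progeny, in both groups alike. The 38w group held RepI with 70 cells on plates C114 and C118 and RepL with 75 cells on plate C119, and the 38wUW group held RepM with 82 cells on C128 and RepN with 83 cells on C129. The labels give 38w or 38wUW as the time of a cell without saying from when it is counted, and give no age. They do not spell out UW, so directions are given only as 38w against 38wUW. Nothing in the labels ties a replicate to one animal, so the spread between replicates may be partly technical. Each plate held one group only, so plate and group cannot be told apart.

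Skint stands for selection and upkeep of intraepithelial T cells. The family encodes membrane proteins with immunoglobulin-like domains, relatives of the butyrophilins, made by thymic epithelium and by keratinocytes. Skint1 is the founding member, needed in the mouse thymus for dendritic epidermal T cells, the gamma delta T cells that live among keratinocytes and respond to damaged ones. Skint3 and Skint9 have been linked to the dialogue between keratinocytes and these T cells in wound repair. The roles of most other members are little known.

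All 10 genes lie on chromosome 4 of the mouse genome (GRCm38, GENCODE M21), within 2.33 Mb from position 111919392 to 114245028, and all are annotated as protein coding. In chromosome order they are Skint8, Skint7, Skint1, Skint4, Skint3, Skint9, Skint2, Skint10, Skint6 and Skint11. Skint9, Skint10 and Skint6 are on the minus strand and the others on the plus strand. Skint6 has the longest span, at 482 kb. The annotation lists 15 other genes inside this interval, of which 1, Skint5, is protein coding, and none of the 15 is in the table.

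**Figure D1:**
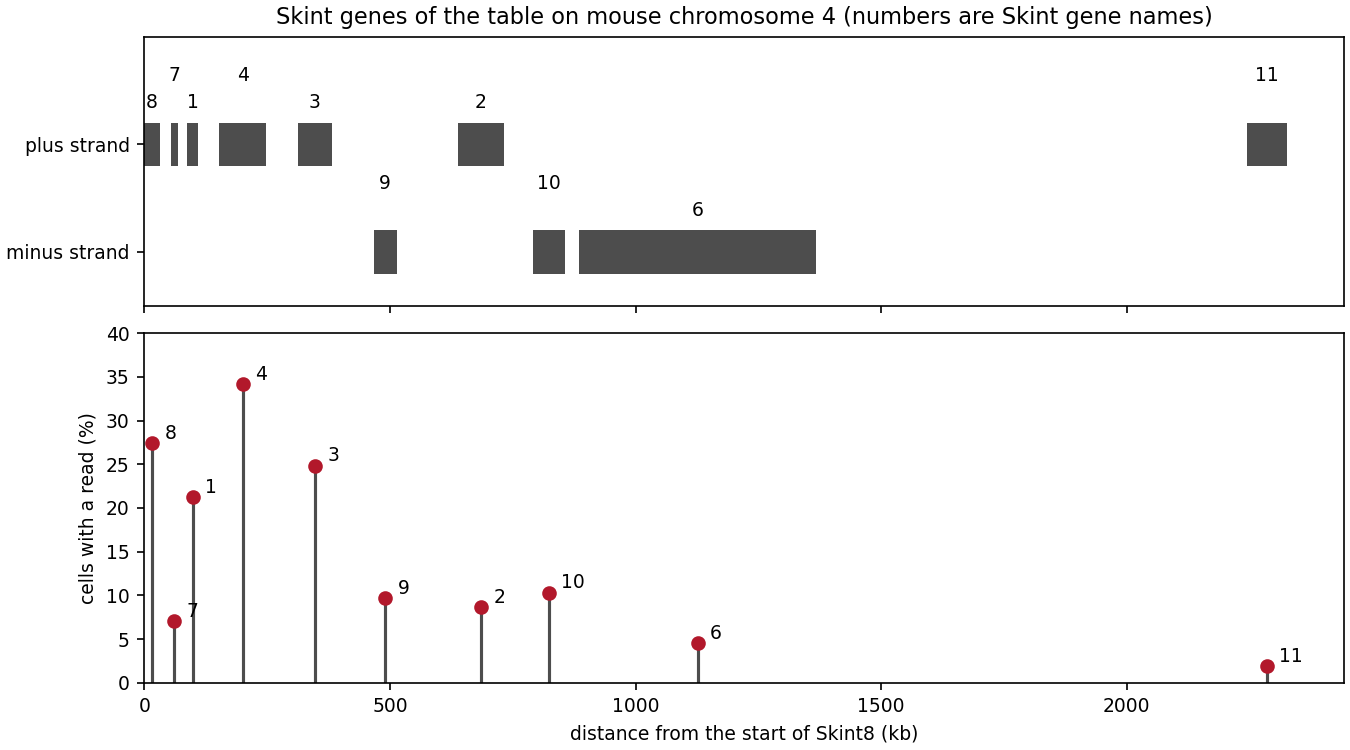
Upper panel: the span of each Skint gene on its strand, as distance in kb from the start of Skint8. Lower panel: the share of the 310 cells with a read of each gene, highest for Skint4 (34.2%) and Skint8 (27.4%) and lowest for Skint11 (1.94%).

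The sequences just upstream were compared between members only, without a baseline from other genes. The windows below are the 250 bases before the RefSeq start (GRCm38.p6) on the gene's own strand, and capitals mark matches, on either strand, to TATAAA (the TATA box) or TGANTCA (an AP-1 site). Skint7 and Skint8 are shown because they share an unbroken run of 51 bases, the longest among the 55 pairs of Skint windows. That run holds the TATA box match and ends 1 base before the Skint7 start. In the Skint8 window it ends 179 bases before the RefSeq start and 16 bases before the GENCODE start, since 163 bases of that window lie inside the GENCODE span of the gene. Skint9, Skint10 and Skint11 are shown because they include both of the most similar pairs. Skint10 and Skint11 have 70.0% identical bases in a global alignment, the highest of the 55 pairs, and Skint9 and Skint10 have 66.0%, with 60.4% for Skint9 and Skint11, against a median of 60% over the pairs. Skint3 is shown as the member found in most infundibular-like cells.
Skint7, chr4:111972677-111972926, plus strand: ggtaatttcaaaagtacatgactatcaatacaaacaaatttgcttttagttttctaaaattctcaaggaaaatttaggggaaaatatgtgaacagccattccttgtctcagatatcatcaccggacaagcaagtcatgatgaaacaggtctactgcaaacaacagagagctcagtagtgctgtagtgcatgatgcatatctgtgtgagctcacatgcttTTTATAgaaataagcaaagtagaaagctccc
Skint8, chr4:111919305-111919554, plus strand: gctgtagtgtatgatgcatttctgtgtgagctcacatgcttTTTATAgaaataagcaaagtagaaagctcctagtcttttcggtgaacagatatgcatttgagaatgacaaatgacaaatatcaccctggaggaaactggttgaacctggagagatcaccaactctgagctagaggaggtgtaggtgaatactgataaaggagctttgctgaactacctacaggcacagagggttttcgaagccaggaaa
Skint9, chr4:112433986-112434235, minus strand: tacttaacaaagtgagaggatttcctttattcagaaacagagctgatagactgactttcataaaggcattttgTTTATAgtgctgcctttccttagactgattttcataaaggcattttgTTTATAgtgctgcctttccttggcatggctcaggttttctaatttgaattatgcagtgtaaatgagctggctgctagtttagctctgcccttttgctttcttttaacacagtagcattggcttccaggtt
Skint10, chr4:112774862-112775111, minus strand: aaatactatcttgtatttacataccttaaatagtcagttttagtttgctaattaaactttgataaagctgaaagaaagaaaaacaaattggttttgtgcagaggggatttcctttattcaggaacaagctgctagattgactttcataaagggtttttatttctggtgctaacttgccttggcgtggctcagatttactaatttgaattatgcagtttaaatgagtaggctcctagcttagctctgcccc
Skint11, chr4:114163134-114163383, plus strand: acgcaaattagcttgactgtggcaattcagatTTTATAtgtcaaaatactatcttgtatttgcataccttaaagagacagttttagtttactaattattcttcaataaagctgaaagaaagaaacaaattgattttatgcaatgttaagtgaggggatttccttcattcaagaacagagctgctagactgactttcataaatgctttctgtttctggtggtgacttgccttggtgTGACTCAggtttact
Skint3, chr4:112231995-112232244, plus strand: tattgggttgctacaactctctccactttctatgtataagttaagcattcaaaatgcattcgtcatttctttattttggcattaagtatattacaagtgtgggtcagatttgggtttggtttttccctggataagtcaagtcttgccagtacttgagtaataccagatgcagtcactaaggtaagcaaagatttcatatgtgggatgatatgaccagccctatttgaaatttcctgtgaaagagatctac

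RefSeq gives 11 windows for the 10 genes, since Skint4 has 2 starts. TATAAA was found in 7 of the 11, those of Skint1, Skint2, Skint7, Skint8, Skint9, Skint11 and the downstream Skint4 start, and in 12.4% of all 32851 promoter windows of this length. Only the Skint1 window has TATAAA on the gene's own strand, and the other matches are TTTATA, its reverse complement. Skint3, Skint6, Skint10 and the upstream Skint4 start had no match. TGANTCA was in 1 Skint window, that of Skint11, and in 6.75% of all windows. The GATA motif AGATAA was in 1, that of the downstream Skint4 start, and in 9.99% of all windows. A match is only a run of letters in this window.

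Reads of most members could be told apart. In the annotated transcripts (GENCODE M21), Skint1, Skint3, Skint4, Skint9 and Skint10 had no window of 75 bases in common with another gene. Skint8 and Skint7 shared 4.06% and 4.63% of theirs, with each other among others. Of runs of 31 bases, Skint8 shared 17.5%, Skint11 13.0%, Skint7 12.7%, Skint6 11.8% and Skint2 6.71% with other genes. The other members shared at most 2.72% of these runs. A read that fits several genes gives estimated counts that are not whole. Of all deposited values above 0 in the table, 14.5% were not exactly whole numbers. For the Skint genes this was so in 30 of the 85 cells with a Skint8 read (35.3%) and in 5 of 22 for Skint7, against 1 of 106 for Skint4, 1 of 77 for Skint3 and 0 of 30 for Skint9. By the counts that are not whole, Skint8 and Skint7 values are the least certain.

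Skint reads were found in 185 of the 310 cells, and 125 had none. Skint4 was found in 106 cells (34.2%), Skint8 in 85, Skint3 in 77 (24.8%) and Skint1 in 66. Skint10 was found in 32 cells, Skint9 in 30, Skint2 in 27, Skint7 in 22, Skint6 in 14 and Skint11 in 6. As CPM (reads of a gene per 1000000 reads of all genes) per kb of the longest coding transcript, the level over all cells was highest for Skint10 at 78.0, followed by Skint4 at 57.6, Skint1 at 46.7, Skint3 at 41.2, Skint9 at 33.5, Skint2 at 27.7 and Skint8 at 17.1. Skint6, Skint7 and Skint11 were at 1.38, 0.760 and 0.381 on the same scale. Without the highest cell of each gene, Skint4 was at 42.6 and Skint10 at 42.2.

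The levels rested on few cells. The 3 cells with the most reads held 80.9% of all Skint10 reads, 63.2% of Skint2, 45.1% of Skint4, 44.8% of Skint1, 40.5% of Skint9 and 33.3% of Skint3. A single RepN cell carried 2036 reads of Skint4 and 683 of Skint10 but none of Skint3. Another RepN cell carried 1671 reads of Skint10, 426 of Skint3, 177 of Skint9 and 37 of Skint4. These 2 cells held 22.5% of the 22966 Skint reads. In the cells that had a read, the median level was 405 CPM for Skint3, 370 for Skint9, 286 for Skint2, 245 for Skint10, 164 for Skint4, 161 for Skint1, 146 for Skint6 and 43.5 for Skint8.

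Most Skint reads came from cells with markers of the infundibulum, the funnel at the mouth of the hair follicle, and of its ducts. Each cell was placed in the class with the highest mean score among lists of 5 or 6 markers, none of them a Skint gene. This gave 104 basal-like, 53 interfollicular differentiated-like, 72 infundibular-like, 34 sebaceous-like and 47 bulge-like cells. The classes are ranges of a score, and 66 of the 310 cells lay within 0.25 of the next class. The classes were cut from these markers, so the marker levels below describe the classes and are no check on their names. The summed CPM of the infundibular markers (Krt79, Cst6, Gata6, Defb6, Krt17 and Klk10) had a median of 39858 in infundibular-like cells and at most 330.2 in the other 4 classes. Infundibular-like cells also had interfollicular markers, with a median summed CPM of 4448, against 18170 in the interfollicular differentiated-like class. Median depth ran from 54889 reads per cell in basal-like to 78916 in bulge-like cells, and shares below are for cells thinned at random to 20000 reads unless stated.

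Of the 68 thinned infundibular-like cells, 61 had a Skint read (89.7%), against 55.1% of 49 interfollicular differentiated-like, 37.5% of 32 sebaceous-like, 27.3% of 88 basal-like and 22.5% of 40 bulge-like cells. The infundibular-like share was the highest in each of the 4 replicates, at 75% and 77.8% in the 38w replicates (RepI and RepL) and 96% and 95.5% in the 38wUW replicates (RepM and RepN). The class held 23.2% of all cells and 68.0% of all Skint reads. Of the 185 cells with a Skint read before thinning, 68 were infundibular-like, 43 basal-like, 37 interfollicular differentiated-like, 19 bulge-like and 18 sebaceous-like. Without thinning, 68 of the 72 infundibular-like cells had a Skint read (94.4%), and with scores centred within each plate the share was 94.1%. CPM was highest in this class for 6 of the 10 members (Skint1, Skint2, Skint3, Skint8, Skint9 and Skint10), as for 20.6% of all 14068 genes, and in the interfollicular differentiated-like class for 3 (Skint4, Skint6 and Skint11), as for 12.4% of all genes. Skint4 is among these 3 through a single RepN cell.

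**Figure D2:**
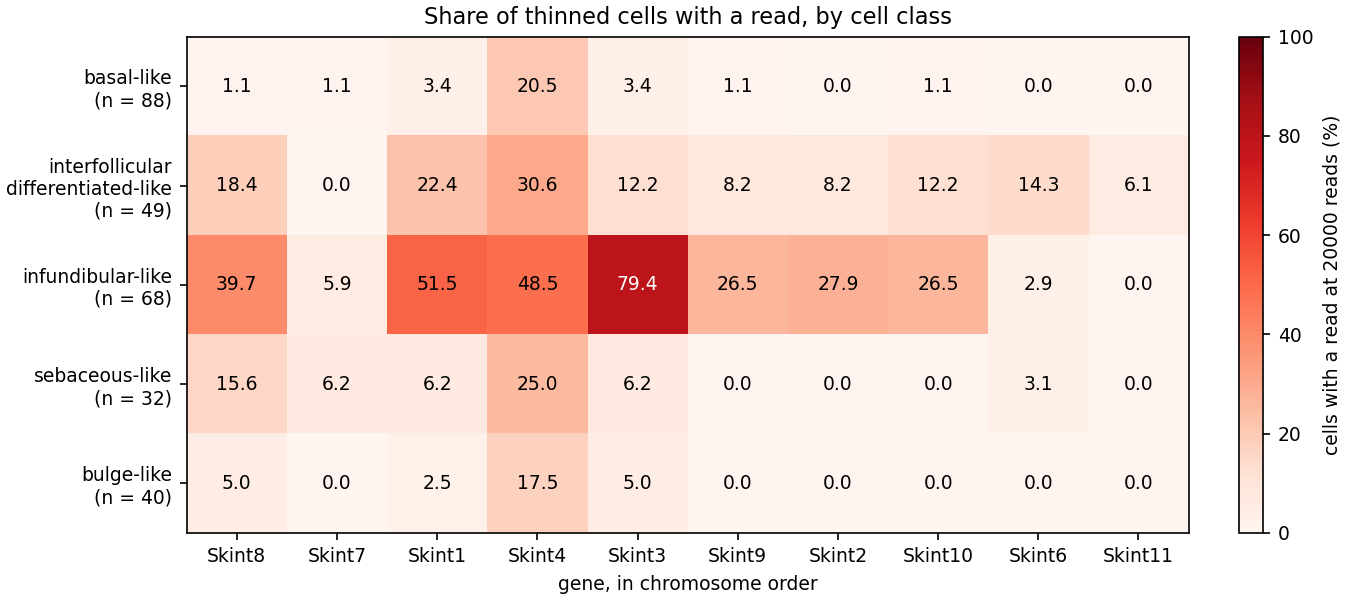
Share of cells with a read of each Skint gene (columns, in chromosome order) in each cell class (rows, with the number of thinned cells), after thinning to 20000 reads. Skint3 in infundibular-like cells is the highest value at 79.4%, while Skint6 and Skint11 are highest in interfollicular differentiated-like cells.

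Skint3 was the member found in most infundibular-like cells, at 79.4%. By replicate the share was 41.7% and 66.7% in 38w and 96% and 86.4% in 38wUW. In the other classes the share was 12.2% of interfollicular differentiated-like, 6.25% of sebaceous-like, 5% of bulge-like and 3.41% of basal-like cells. Infundibular-like cells held 91.9% of all Skint3 reads, but only 109 of the 239 in RepI. By CPM they were the highest class for Skint3 in 3 of the 4 replicates. The Skint3 level in infundibular-like cells was 677 CPM, against 1.68 CPM in basal-like cells.

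Skint9 and Skint2 were rarer than Skint3, and by reads as concentrated in this class. Skint9 was found in 26.5% of infundibular-like and 8.16% of interfollicular differentiated-like cells, and infundibular-like cells held 93.4% of its reads. Skint2 was found in 27.9% and 8.16% of the same classes, with 94.4% of its reads in infundibular-like cells. Within the 38wUW replicates the shares of cells differed less between these classes. For Skint9 they were 52% of infundibular-like and 42.9% of interfollicular differentiated-like cells in RepM, and 18.2% and 14.3% in RepN. For Skint2 they were 44% and 42.9% in RepM, and 9.09% and 14.3% in RepN. Neither had a read in the 34 sebaceous-like cells, which allows a share of up to 8.82%. Skint2 had none in the 104 basal-like or 47 bulge-like cells either.

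Skint10 was found in both differentiated classes and almost nowhere else. It was in 26.5% of infundibular-like and 12.2% of interfollicular differentiated-like cells, and these classes held 78.1% and 21.8% of its reads. The infundibular-like share was the higher in RepI and RepL, at 33.3% against 0% and 11.1% against 6.67%. The interfollicular differentiated-like share was the higher in RepM and RepN, at 42.9% against 28% and 28.6% against 27.3%. Only 2 basal-like cells had a Skint10 read before thinning, and no sebaceous-like or bulge-like cell did.

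Skint1, the member needed for epidermal T cell development, was found in 51.5% of infundibular-like, 22.4% of interfollicular differentiated-like, 6.25% of sebaceous-like, 3.41% of basal-like and 2.50% of bulge-like cells. Skint8 was found in 39.7%, 18.4%, 15.6%, 1.14% and 5% of the same classes. The infundibular-like share was the highest in all 4 replicates for Skint1, but in 2 of the 4 for Skint8.

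Skint4 was the least restricted of the frequent members. It was found in 48.5% of infundibular-like, 30.6% of interfollicular differentiated-like, 25.0% of sebaceous-like, 20.5% of basal-like and 17.5% of bulge-like cells. The infundibular-like share was the highest in 2 of the 4 replicates. Its CPM was 389 in infundibular-like and 393 in interfollicular differentiated-like cells, and 107 in basal-like cells. Without the RepN cell with 2036 Skint4 reads, the interfollicular differentiated-like level was 77.7 CPM.

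Skint6 and Skint11 followed another pattern. Of the 14 cells with a Skint6 read, 10 were interfollicular differentiated-like, 3 infundibular-like and 1 sebaceous-like. The interfollicular differentiated-like cells held 83.3% of its reads, and no Skint6 read was found in basal-like or bulge-like cells. Of the 6 cells with a Skint11 read, 5 were interfollicular differentiated-like and 1 was basal-like, and none of the 72 infundibular-like cells had one, which allows a share of up to 4.17%. Both rest on few cells, and RepL had no Skint6 read. Skint7 was rare in every class, at 0 to 6.25% of cells.

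Members were found together in the same cells. Without thinning, at least 3 Skint genes were found in 68 cells, of which 51 were infundibular-like and 11 interfollicular differentiated-like. By replicate, 11 of these cells were from RepI, 4 from RepL, 30 from RepM and 23 from RepN. At least 5 Skint genes were found in 32 cells, 25 of them infundibular-like and 7 interfollicular differentiated-like. The highest number in 1 cell was 8. Of the 43 basal-like cells with a Skint read, 34 had 1 member only.

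Skint3 was present in nearly all cells with Skint2 or Skint9. It was found in 26 of the 27 Skint2 cells (96.3%) and in 28 of the 30 Skint9 cells (93.3%), which were 33.8% and 36.4% of the 77 Skint3 cells. Skint9 and Skint10 shared 20 cells, or 66.7% of the Skint9 and 62.5% of the Skint10 cells. Their Spearman correlation within plates was 0.51 (mean over the 3 plates with both genes, 190 thinned cells), the highest of all pairs. Skint4 and Skint9 shared 18 cells, with a correlation of 0.07 over the same 190 cells. Points of a plate share library preparation and sequencing depth, and sparse counts hold such correlations low.

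**Figure D3:**
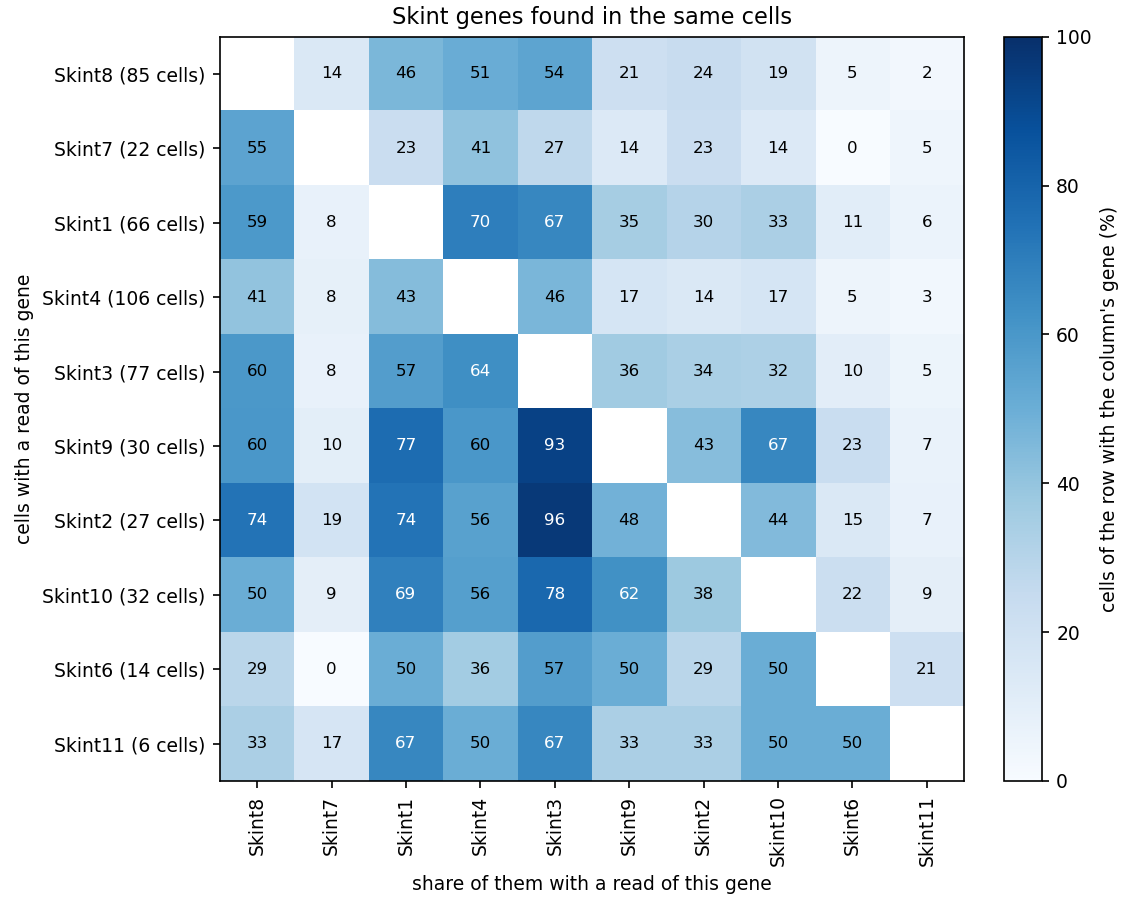
For the cells with a read of the row's gene (number in parentheses), the percentage that also had a read of the column's gene, without thinning. The Skint3 column is darkest for Skint9 (93.3%) and Skint2 (96.3%), and no cell had both Skint7 and Skint6.

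Among 3298 genes found in at least 25% of thinned cells, those most like the summed Skint count were Defb6, Ly6g6c, Cst6, Cstb, Ptgr1, Krt79, Psapl1, Dsg1a, Grhl1 and Crabp2. Their mean Spearman correlations within the 5 plates ran from 0.58 for Defb6 down to 0.49 for Crabp2 (277 cells). Defb6 (a beta-defensin), Cst6 (a cysteine protease inhibitor) and Krt79 (a keratin of the infundibulum and ducts) are also infundibular markers of the class score. Dsg1a encodes a desmosomal cadherin of differentiated layers, and Grhl1 a transcription factor of desmosomal genes. For Skint9 the closest genes were Krt79 (0.45), Bbox1 (0.42) and Defb6 (0.42), over the 3 plates with Skint9 reads (190 cells). For Skint10 they were Sdr16c6 (0.41), Calm4 (0.40) and Plxdc2 (0.40), over 4 plates (260 cells). Skint4 had only weak likenesses, the highest being Lgalsl (0.25), Cwh43 (0.25) and Sdr16c5 (0.25), over 277 cells.

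The 4 neighbours in the table within 500000 bases of the locus were Bend5, Spata6, Slc5a9 and Trabd2b. Slc5a9, a sugar transporter gene next to Skint8, had a correlation of 0.35 with the summed Skint count and was found in 39 cells. The other 3 were between -0.10 and 0.09. Of 10 butyrophilin relatives, 3 were in the table (Btnl9, Btnl10 and Ermap), each in 7 to 10 cells with 15 to 29 reads in all.

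Of 11 keratinocyte ligands and factors that act on dendritic epidermal T cells, 7 were in the table. H60c, a ligand of the NKG2D receptor on these T cells, was found in 88 cells, with 47.2% of interfollicular differentiated-like and 36.1% of infundibular-like cells, without thinning. Il7, a T cell growth factor, was found in 43 cells and most often in sebaceous-like ones (41.2%). Their correlations with the summed Skint count were 0.15 and -0.13. Of the 7, 6 were tested between the groups and none passed, nor did any of the 11760 genes tested. The log2 fold changes of these 6 ran from -1.87 for Il7 to 0.95 for Plxnb2. Their median was -0.92, against 0.12 over all genes tested. Reads of T cell markers were few, though 86 cells had such a read, and the share of T cells in the sort was not measured. Of 11 T cell markers, 3 were in the table (Cd3d, Ptprc and Thy1), and their summed level was 9.46 and 5.71 CPM in RepI and RepL and 4.57 and 9.83 CPM in RepM and RepN. Markers of Langerhans cells (1 of 4 in the table), melanocytes (2 of 4) and fibroblasts (4 of 5) summed to at most 0.310, 15.1 and 62.7 CPM in any replicate. The tail scale keratins Krt36 and Krt84, found in 23 cells, summed to 8668 and 2500.2 CPM in RepI and RepL and to 6.76 and 0 CPM in RepM and RepN, and none of the 72 infundibular-like cells had them.

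Skint levels were lower in both replicates of 38w than in both replicates of 38wUW, and this is the contrast the family was selected on. All Skint reads together made up 178 CPM in RepI and 128.9 CPM in RepL of 38w, and 1173 CPM in RepM and 1087 CPM in RepN of 38wUW. The group means were 154 ± 34.8 and 1130 ± 60.7 CPM (SD, n = 2 each). The gap was larger than the spread within either group.

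Skint4 was at 42.6 CPM in RepI and 61.5 in RepL, and at 215 in RepM and 454 in RepN. Skint9 was at 1.03 CPM in RepI and 0 in RepL, where the limit of a count of 0 is 0.517 CPM, and at 193 in RepM and 38.0 in RepN. Skint10 was at 11.3 and 7.07 CPM in RepI and RepL, and at 73.8 and 238 in RepM and RepN. In none of these 3 genes did the groups overlap, though RepM and RepN of 38wUW themselves differed 2.11-fold for Skint4, 5.08-fold for Skint9 and 3.23-fold for Skint10.

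Skint3 was at 24.6 and 30.3 CPM in RepI and RepL, and at 346 and 237 CPM in RepM and RepN. Here too the groups did not overlap. Skint2 was at 13.0 and 4.14 CPM in 38w, and at 233 in RepM but only 11.7 in RepN, so the groups overlapped. Skint1 was at 61.8 and 9.998 CPM in 38w and 76.6 and 71.0 in 38wUW, with no overlap. Its group means differed by -37.9 CPM, about the size of the SD within 38w (36.6 CPM, n = 2). Skint8 was at 11.9 and 13.4 CPM in 38w and 25.0 and 32.4 in 38wUW, with no overlap. Skint6, Skint7 and Skint11 were at most at 11.3 CPM in any replicate.

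Both 38w replicates were below both 38wUW replicates in CPM for 7 of the 10 members, as for 26.2% of the 11760 genes tested, and in the share of thinned cells with a read also for 7, as for 30.4% of 13939 genes. The shares of thinned cells with any Skint read were 39.7% in RepI and 31.4% in RepL, and 62.5% in RepM and 58.7% in RepN. The group means differed by -25.0 percentage points. With 4 replicates there are 6 splits, and the smallest p an exact two-sided permutation test can give is 0.333. For single members the shares, in the same order of replicates, were 8.82%, 10%, 46.9% and 32% for Skint3, 13.2%, 21.4%, 42.2% and 40% for Skint4, 2.94%, 0%, 25% and 6.67% for Skint9, and 7.35%, 2.86%, 15.6% and 10.7% for Skint10.

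**Figure D4:**
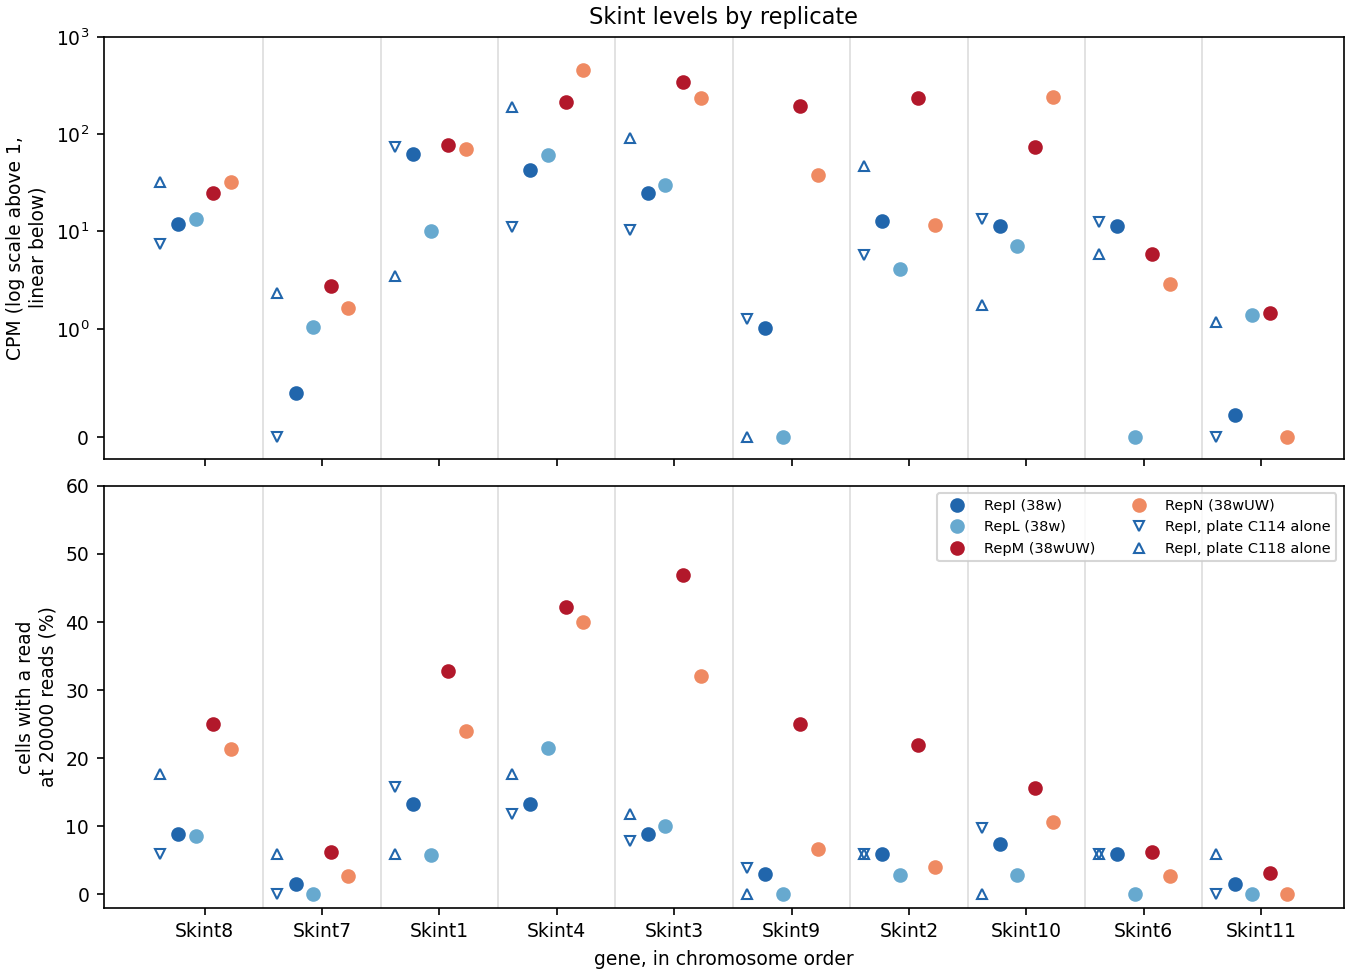
CPM (upper panel, log scale above 1 and linear below) and share of cells with a read after thinning to 20000 reads (lower panel) of each Skint gene in the 4 replicates, with the 2 plates of RepI also drawn alone as open triangles. For Skint3, Skint4, Skint9 and Skint10 both 38w replicates lie below both 38wUW replicates in both panels. In CPM the plates of RepI differ from each other 21.3-fold for Skint1 and 17.2-fold for Skint4. Of the 595 Skint1 reads on C114, 468 lay in 1 cell.

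In the fit of replicate sums over all genes (edgeR's quasi-likelihood test), log2 fold changes of 38w against 38wUW were -7.40 (SE 1.45) for Skint9, -3.82 (SE 0.99) for Skint10, -3.59 (SE 1.24) for Skint2, -3.16 (SE 0.90) for Skint3 and -2.43 (SE 0.90) for Skint4. The Skint9 value rests on 10 reads in RepI and 0 in RepL. They were -1.36 for Skint7, -0.93 for Skint8 and -0.78 for Skint1, and 0.65 and 0.41 for Skint6 and Skint11. The median over the 10 members was -1.90, against 0.12 over the 11760 genes tested. After Benjamini-Hochberg adjustment 0 of the 10 passed 0.05, and so did 0% of all genes. At an unadjusted p under 0.05, 5 members were lower in 38w, as were 3.78% of all genes. Nothing is read from these counts, since the family was selected on this contrast.

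The count depended on the tool and on single replicates. DESeq2 called 3 members lower (Skint3, Skint9 and Skint10), as 0.406% of the 11076 genes with an adjusted p. Without RepI, edgeR called 4 (also Skint2), as 0.719% of all genes. Without RepL it called 5 (also Skint2 and Skint4), as 3.05% of all genes. Either leaves 1 replicate in 38w, which is assumed to vary like those of 38wUW.

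The mix of cells moved with the groups. Infundibular-like cells made up 17.1% of RepI and 12% of RepL, and 34.1% of RepM and 27.7% of RepN. Basal-like cells made up 44.3% and 44.0% of the 38w replicates and 30.5% and 18.1% of the 38wUW replicates. With the class mix held equal in all replicates, the shares of thinned cells with a Skint read were 43.4% and 37.1% in RepI and RepL and 55.9% and 59.4% in RepM and RepN, a difference of -17.4 percentage points.

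Within infundibular-like cells (12 and 9 in the 38w replicates, 28 and 23 in the 38wUW replicates) the summed Skint level was 654 and 680 CPM in 38w, and 2849 and 2684 CPM in 38wUW. Skint3 was at 71.0 and 279 CPM against 983 and 856. Skint9 was at 5.86 and 0 CPM against 529 and 141. Skint10 was at 67.1 and 5.11 CPM against 188 and 717. Both higher Skint10 levels leaned on 1 cell. Without the RepI cell with the most Skint1 reads, Skint10 in RepI was at 4.88 CPM. Without the RepN cell with 1671 Skint10 reads, Skint10 in RepN was at 241 CPM. In either case the groups still did not overlap. In CPM, Skint3, Skint9 and Skint10 were the members whose groups did not overlap, of 7 tested in this class. The same held for 31.7% of the 7825 genes tested there. Skint4 was at 46.2 and 264 CPM against 261 and 640, and Skint8 at 62.5 and 66.4 CPM against 56.5 and 74.2, so that the groups overlapped in both. By the share of thinned cells with a read, the groups overlapped for Skint10 (33.3% and 11.1% against 28% and 27.3%) and Skint2. They did not overlap for Skint1 (33.3% and 22.2% against 64% and 59.1%), Skint4 (8.33% and 33.3% against 64% and 59.1%) or Skint8 (25% and 11.1% against 48% and 50%). Skint3, Skint9, Skint6 and Skint7 did not overlap by this share either, but they overlapped without thinning. Skint6 and Skint7 had thinned shares of 0% in both 38w replicates and of at most 4.55% and 12% in 38wUW. How many of all genes do not overlap by share in this class was not counted, so nothing is read from these cases. Log2 fold changes in this class were -6.04 for Skint9, -3.03 for Skint10, -1.94 for Skint2, -1.90 for Skint3 and -1.05 for Skint4, and 0.40 and 0.52 for Skint1 and Skint8. Skint1 reads in the infundibular-like cells of RepI were 479, of which 468 came from 1 cell, and without that cell the level there was 8.95 instead of 312 CPM. Over all cells, the Skint1 fold change was -2.39 without the highest cell of each gene.

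**Figure D5:**
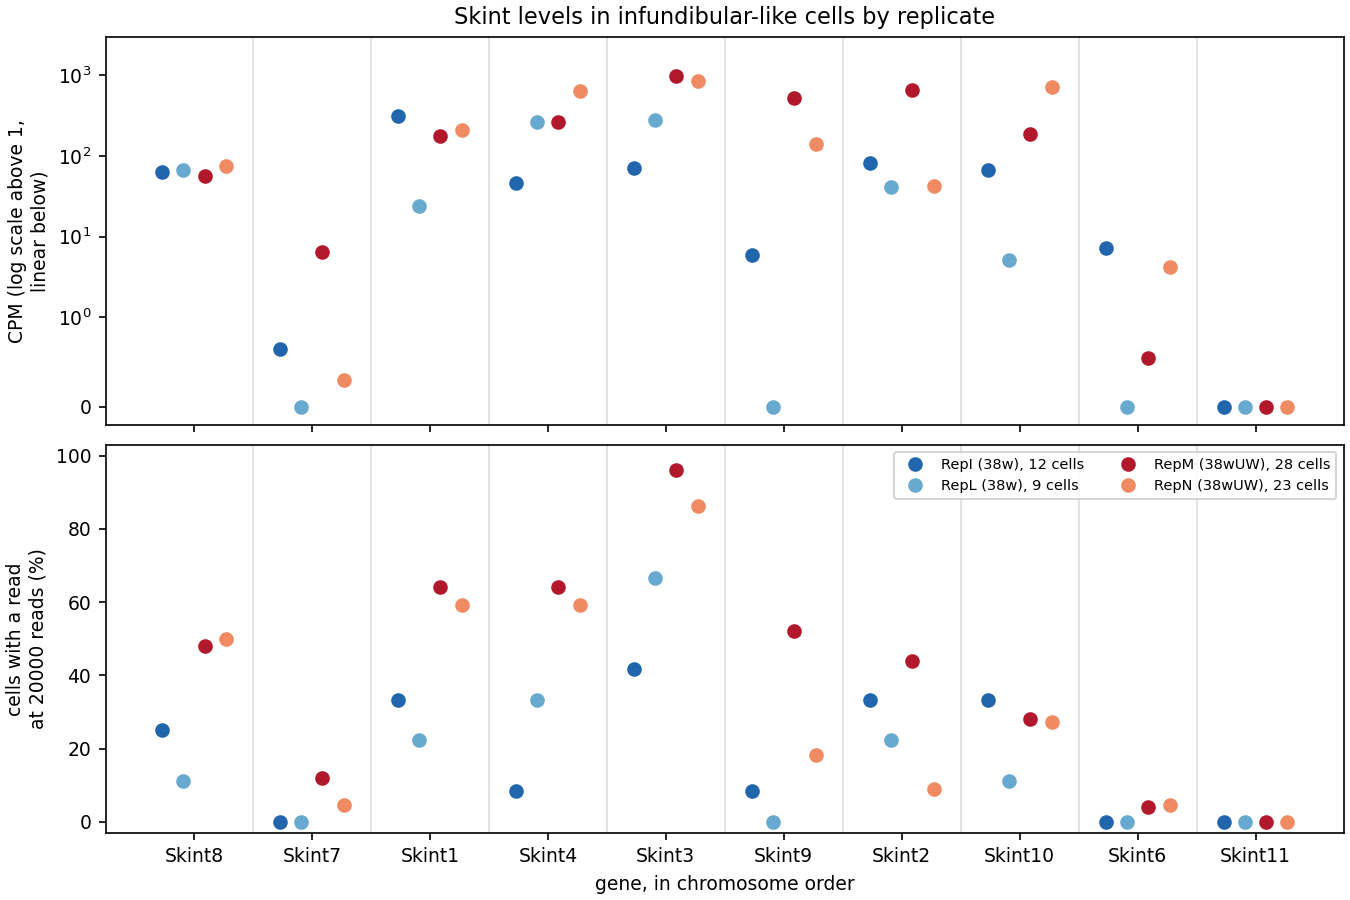
CPM (upper panel, log scale above 1 and linear below) and share of thinned cells with a read (lower panel) of each Skint gene in infundibular-like cells alone, by replicate. Skint3, Skint9 and Skint10 are lower in both 38w replicates in CPM, whereas the Skint8 levels of the 4 replicates lie between 56.5 and 74.2 CPM.

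In interfollicular differentiated-like cells (21 and 15 in the 38w replicates, 9 and 8 in the 38wUW replicates) the summed level was 80.1 and 312 CPM in 38w and 1020 and 1550 CPM in 38wUW. Without the RepN cell with the most Skint reads, RepN was at 185 CPM and the groups overlapped. Skint10 was at 1.01 and 41.3 CPM against 113.8 and 360.2. Without the same cell RepN was at 9.96 CPM, and the groups overlapped. Skint6 was at 33.2 and 0 CPM against 54.9 and 12.2, so that the groups overlapped.

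The plates of RepI differed from each other. Skint4 was at 10.99 CPM on C114 and 190 on C118, close to the 215 of RepM. The 326 Skint4 reads on C118 lay in 4 cells. By the share of thinned cells with a Skint4 read, C114 was at 11.8%, C118 at 17.6% and RepM at 42.2%. On C114 and C118, Skint3 was at 10.2 and 91.3 CPM, Skint8 at 7.52 and 32.6 CPM, and Skint2 at 5.75 and 46.5 CPM. On C118 the 157 Skint3 reads lay in 2 cells and the 80 Skint2 reads in 1 cell. Skint1 went the other way in CPM, at 74.3 on C114 and 3.49 on C118. Of the 595 Skint1 reads on C114, 468 lay in 1 cell. Without thinning, Skint1 was found in 17.0% of the C114 cells and 17.6% of the C118 cells. With RepI taken from C118 alone (17 cells), log2 fold changes were -1.14 for Skint4, -1.996 for Skint3, -2.02 for Skint2 and -4.82 for Skint10, and -0.06 for Skint8. The part of the plate in these differences was not tested.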

How the data were processed

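Processed data were one table of estimated counts per gene and cell, which the authors deposited after quantification with Salmon 0.13.1 (mm10, GRCm38) and filtering. R 4.0.3 and Seurat are also named in the submitters' processing notes. Values were summed per replicate and rounded to whole numbers. Depth was 5472070 to 12946742 reads per replicate, with a median of 61294 per cell, and no 2 cells were identical. All genes that passed filterByExpr were fitted with edgeR 4.0.16 in R 4.3.3 (TMM, quasi-likelihood test, Benjamini-Hochberg adjustment), and SE was taken as the log2 fold change over the square root of F. DESeq2 1.42.0 was an alternative. Classes were the highest of 5 mean z-scores of log2(CPM + 1). For shares, cells were thinned to 20000 reads (277 of 310 cells). Limits of a count of 0 are 3 counts and cover counting error only. Named genes were all Skint genes of the table, the 10 genes most like their sum, the 3 most like Skint4, Skint9 and Skint10, neighbours and fixed lists. Members, lists and classes were chosen with earlier results of these data known. Sequences are from RefSeq (GRCm38.p6), with 11 windows matched to 10 genes. No samples were left out.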

Additional observations from a re-analysis of the deposited data

How the results depend on the processing

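Of the 10 members, 0 passed the threshold in the edgeR fit. The number was 3 with DESeq2, which called 0.406% of all genes with an adjusted p lower in 38w. It was 1 (Skint9) with plates as units and the alternative batch tag as a replicate block, a fit that called 4 of all 11561 genes. It was 0 with the other batch tag as a replicate block. Fits with plates as units count C114 and C118, both of RepI, as separate units. Leaving out one replicate gave 0 to 5, with the lone replicate of its group assumed to vary like the other group's. It stayed 0 under the other size factors, no filter on low counts, thinned cells, either plate of RepI alone, plates as units, and without the cells with a name suffix. It also stayed 0 in infundibular-like cells and without the highest cell of each gene, both added after seeing the data. Skint2, Skint3, Skint4, Skint9 and Skint10 kept a negative log2 fold change under all 16 alternatives, between -12.82 (Skint9 without RepI) and -0.17 (Skint2 without RepM). RepL has no Skint9 or Skint6 read, so values without RepI are fitted against 0 reads for these genes and are no bounds. The median of all genes lay between -0.22 and 0.28 over the fits. Leaving out one replicate gave -2.65 (without RepI) to 0.083 (without RepL) for Skint1, and -8.10 (without RepI) to 1.71 (without RepL) for Skint6. Signs also turned for Skint1 (0.40) and Skint8 (0.52) in infundibular-like cells, and for Skint6 with RepI from C118 only (-0.46), with thinned cells (-1.20) and without its highest cell (-1.06). The cause was not tested. The difference in the share of cells with any Skint read lay between -33.3 and -17.4 percentage points under all 11 alternatives, the smallest with the class mix held equal and the largest with at least 5 reads. The class mix was an alternative added after seeing the data. Leaving out one replicate gave differences in single shares of -2.39 to 0.74 for Skint11, -17.5 to 0.37 for Skint2 and -4.46 to 1.42 for Skint6. Single shares also turned for Skint11 with RepI from C118 only (1.38), not thinned (0.22) and thinned to 10000 reads (0.057), and for Skint2 in infundibular-like cells (1.23). Without the cell with the most Skint reads, left out after seeing the data, the interfollicular differentiated-like level fell from 636 to 222 CPM for the family, from 393 to 77.7 CPM for Skint4 and from 125 to 19.1 CPM for Skint10. The batch tags are not stated to pair animals. Depth limits Skint6, Skint7 and Skint11, each found in 22 cells or fewer.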
